A study of Mus musculus with 6 samples.

Results

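The 7 genes described here are Atf3, Jun, Sox11, Gap43, Ecel1, Sprr1a and Gadd45a, which were chosen by name as genes of the neuronal response to axon injury. All 7 were found among the 32285 genes of the count files. They were measured in single nuclei isolated from frozen lumbar cords of mice of the C57BL/6 strain, aged 110 days. The 3 SOD1G93A/PHD1-/- libraries lack PHD1, an oxygen-dependent prolyl hydroxylase that is the protein of the gene Egln2. The 3 SOD1G93A/PHD1+/+ libraries are their controls. Every mouse of both groups carried SOD1G93A, a mutant human superoxide dismutase that causes progressive motor neuron loss, so no library shows the level of these genes in a cord without disease. Littermate pairs are mentioned in the labels, which tie neither a library to 1 animal nor the replicate number to a pair.

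When the axon of a neuron is cut, crushed or poisoned, kinases of the dual leucine zipper and JNK family carry a signal back to the cell body, where a set of transcription factors is switched on. Motor neurons and sensory neurons, whose axons run in peripheral nerves, mount this response strongly, and in mice with mutant SOD1 it is best known from motor neurons whose axons have withdrawn from muscle. In the nucleus the response is carried by ATF3, a stress-induced factor of the ATF and CREB family, by JUN, the AP-1 factor that JNK phosphorylates, and by SOX11, a factor of developing and regrowing neurons. Their products include GAP-43, a membrane protein of growth cones, SPRR1A, a small proline-rich protein that regenerating axons contain, and ECEL1, a membrane endopeptidase-like protein also called DINE that motor axons need to branch in muscle. GADD45A is a small stress protein of growth arrest and DNA repair. Several of the 7 are also induced by stress in glia and immune cells, so they do not mark neurons by themselves.

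All 7 are protein-coding genes on the minus strand of GRCm38 in the GENCODE annotation. Ecel1 (ENSMUSG00000026247) lies at chr1:87147655-87156521 and Atf3 (ENSMUSG00000026628) at chr1:191170296-191218039. Sprr1a (ENSMUSG00000050359) lies at chr3:92483952-92485895, Jun (ENSMUSG00000052684) at chr4:95049034-95052222 and Gadd45a (ENSMUSG00000036390) at chr6:67035096-67037457. Sox11 (ENSMUSG00000063632) lies at chr12:27334264-27342574 and Gap43 (ENSMUSG00000047261) at chr16:42248442-42340651.

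RefSeq promoter windows on GRCm38.p6 were matched by symbol for 6 of the 7 genes, all but Gap43. They are shown because ATF3 and JUN bind DNA as dimers, to the AP-1 element TGANTCA or to the cyclic AMP response element TGACGTCA and its close variants. The stretches below run 5′ to 3′ on the strand of the gene and end at the base before its RefSeq start; capitals mark matches to TGANTCA, TGACATCA or TTACGTCA on either strand. The first stretch covers chr3:92485882-92486101, the second chr4:95052223-95052322, the third chr12:27342719-27342818 and the fourth chr1:191183334-191183433, all on the minus strand.
Sprr1a: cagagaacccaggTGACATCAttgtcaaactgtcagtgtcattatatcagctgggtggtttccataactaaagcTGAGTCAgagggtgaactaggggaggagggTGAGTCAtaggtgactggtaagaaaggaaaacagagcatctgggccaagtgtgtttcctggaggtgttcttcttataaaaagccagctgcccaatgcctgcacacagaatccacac
Jun: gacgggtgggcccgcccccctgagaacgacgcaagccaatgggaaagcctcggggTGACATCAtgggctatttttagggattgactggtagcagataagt
Sox11: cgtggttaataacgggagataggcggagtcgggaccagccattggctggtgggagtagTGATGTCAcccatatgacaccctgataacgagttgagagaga
Atf3: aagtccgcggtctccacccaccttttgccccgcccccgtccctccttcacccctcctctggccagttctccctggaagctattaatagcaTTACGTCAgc

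Within the 250 bases before the start, TGANTCA was found in 1 of the 6 windows, that of Sprr1a, where it begins 146 and 116 bases before the start, and in 6.75% of all 32851 windows. TGACGTCA was found in 0 of the 6 windows and in 1.55% of all windows. TGACATCA, read on either strand, was found in 3 of the 6, at 207 bases before the start in Sprr1a, 45 in Jun and 42 in Sox11, and in 2.93% of all windows. TTACGTCA, on either strand, was found 10 bases before the start of Atf3 and in 0.447% of all windows. The last 2 spellings were added after these windows had been read. A match is a string of letters and not a measured binding site.

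Counts are of unique molecular identifiers (UMIs), each of which marks 1 captured transcript near its 3′ end. After filtering, 41906 nuclei with 146898504 UMIs were kept, with 5996 to 7216 nuclei in PHD1-/- libraries and 5208 to 9153 in PHD1+/+ libraries. Replicate 1 of both genotypes stood apart, with another barcode list and a median depth per nucleus of 1365 UMIs (PHD1-/-) and 1363 UMIs (PHD1+/+). The remaining 4 libraries had medians of 2290.5 to 2902. Libraries shared 0 to 86 barcode sequences by pair, at most 1.31% of the smaller library, and the pair that shared 86 was replicate 1 of both genotypes. As a check of the labels, Egln2 reached 9.66, 9.04 and 10.1 CPM in PHD1-/- libraries against 29.6, 18.8 and 16.4 in PHD1+/+ libraries. Its transcript was thus lower in PHD1-/- libraries but not absent. CPM is the usual scaling of a gene's UMIs to the total UMIs of its library or, for a class, of that class in the library. Classes were rebuilt by clustering with the 7 genes and a wider list of 57 injury genes left out of the variable genes, and a name ending in -like stands for such a cluster.

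The cells in which this response is best known are rare in these libraries. The cholinergic-like cluster held 116 nuclei, 16, 24 and 16 in PHD1-/- libraries and 11, 27 and 22 in PHD1+/+ libraries, with a median of 13262.5 UMIs per nucleus. Transcripts of the choline transporter Slc5a7 were found in 94.0% of its nuclei, of the acetylcholine-synthesising enzyme Chat in 81.0%, of the motor neuron filament gene Prph in 69.8%, of the motor neuron factor Isl1 in 42.2%, of the vesicular transporter Slc18a3 in 38.8% and of Mnx1 in 8.62%. In the 15545 other neurons these shares were 2.50% for Slc5a7, 0.573% for Chat, 2.89% for Prph, 0.528% for Isl1, 0.971% for Slc18a3 and 0.0901% for Mnx1. Markers of several motor neuron kinds were present in it, among them Chodl of alpha motor neurons in 12.1% of nuclei, Npas1 of gamma motor neurons in 33.6% and Nos1 of visceral motor neurons in 22.4%. Spp1, also an alpha marker, was found in 6 of the 8 nuclei with Atf3 or Sprr1a and in 30 of the 108 without. The other listed markers of each kind and their shares in other neurons are not given here, so the cluster was not assigned to 1 type of motor neuron or to a mix.

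Cholinergic-like neurons had higher levels of 6 of the 7 genes than the other neurons, on levels scaled to the UMIs of each class. In this comparison, paired within the 6 libraries, 1586 of 15608 tested genes (10.2%) were higher in cholinergic-like neurons and 2041 (13.1%) lower, with edgeR's quasi-likelihood test at an adjusted p of 0.05. DESeq2 called 1515 higher and 1253 lower of 26913 tested genes, and the same 6 of the 7. Its median log2 difference over all tested genes was 0.38, against -0.09 with edgeR. The tools differed in both scaling and gene filter, which were not told apart. The nuclei had been grouped on other genes of the same nuclei, so the comparison describes a cluster and not an independently sorted population. When every neuron with a UMI of Chat or Slc5a7 was taken in place of the cluster, 5 of the 7 were higher. That choice took 58, 115 and 84 nuclei in PHD1-/- libraries, of which 16, 24 and 16 lay in the cluster. In PHD1+/+ libraries it took 61, 104 and 140, of which 9, 27 and 21 lay in the cluster. Most of these nuclei were thus other neurons, and the choice is not a like population.

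Of the transcription factors, Atf3 was close to 0 in other neurons. Its level in cholinergic-like neurons was 93.7, 19.2 and 0 CPM in PHD1-/- libraries and 0, 34.4 and 19.3 CPM in PHD1+/+ libraries. In the other neurons it was 1.502, 0.874 and 0.416 CPM in PHD1-/- libraries and 2.10, 0.815 and 1.05 CPM in PHD1+/+ libraries. The cholinergic-like value was the higher one in 4 of 6 libraries, and in the remaining pair no Atf3 UMI was found in cholinergic-like nuclei. The fitted log2 difference was 4.49 (SE 0.48, adjusted p = 1.16e-10, edgeR), and the exact sign-flip test over the 6 libraries on log2(CPM + 10), whose smallest possible p is 0.0312, gave 0.125.

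Jun lay at 54.6, 31.9 and 9.63 CPM in cholinergic-like neurons of PHD1-/- libraries and at 44.2, 46.6 and 36.4 CPM in those of PHD1+/+ libraries. The other neurons held 13.2, 9.70 and 8.37 CPM in PHD1-/- libraries and 23.2, 9.49 and 9.25 CPM in PHD1+/+ libraries. Cholinergic-like neurons were above the other neurons in 6 of 6 libraries, by least in PHD1-/- replicate 3. The log2 difference was 1.72 (SE 0.27, adjusted p = 1.24e-06, edgeR; exact sign-flip p = 0.0312).

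Sox11 was the steadiest of the factors. It lay at 109, 100.1 and 93.1 CPM in cholinergic-like neurons of PHD1-/- libraries and at 144, 95.2 and 57.8 CPM in those of PHD1+/+ libraries, against 22.1 to 35.2 CPM in the other neurons of all 6 libraries. The ranges did not overlap, and the log2 difference was 1.88 (SE 0.17, adjusted p = 8.62e-13, edgeR; exact sign-flip p = 0.0312).

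Among the products, Ecel1 had 78.0, 123 and 77.0 CPM in cholinergic-like neurons of PHD1-/- libraries and 66.4, 241 and 321 CPM in those of PHD1+/+ libraries. The other neurons lay between 16.4 and 21.99 CPM, below every cholinergic-like value. The log2 difference was 3.06 (SE 0.20, adjusted p = 5.01e-18, edgeR; exact sign-flip p = 0.0312).

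Sprr1a was found at 0, 0 and 0 CPM in cholinergic-like neurons of PHD1-/- libraries and at 188, 26.3 and 53.5 CPM in those of PHD1+/+ libraries. The value of 188 CPM is 17 UMIs in 1 nucleus that had 0 UMIs of Chat, Slc5a7 and Isl1 and 3 of Prph, so its cholinergic identity rests on its cluster. The other neurons held 0.208 to 1.502 CPM. The pooled log2 difference of 5.40 (SE 0.62, adjusted p = 7.00e-10, edgeR) therefore came from 3 of the 6 libraries, all PHD1+/+, and the exact sign-flip p was 0.25.

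Gadd45a lay at 15.6, 8.52 and 9.63 CPM in cholinergic-like neurons of PHD1-/- libraries and at 44.2, 10.1 and 10.7 CPM in those of PHD1+/+ libraries, against 2.18 to 6.19 CPM in the other neurons. It was higher in 6 of 6 libraries (log2 difference 1.78, SE 0.42, adjusted p = 0.000972, edgeR; exact sign-flip p = 0.0312). The difference was 0.998 with an adjusted p of 0.226 (edgeR) once the 4 cholinergic-like nuclei of 50000 UMIs or more were left out. For nuclei chosen by Chat or Slc5a7, most of them outside the cluster, it was 0.735 with an adjusted p of 0.147 (edgeR).

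Gap43 did not pass the test. It had 54.6, 117 and 103 CPM in cholinergic-like neurons of PHD1-/- libraries and 66.4, 142 and 154 CPM in those of PHD1+/+ libraries, against 82.6 to 109 CPM in the other neurons, so the ranges overlapped on both sides. The log2 difference was 0.19 (SE 0.15, adjusted p = 0.403, edgeR) and was -0.07 without the 4 deepest nuclei.

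**Figure D1:**
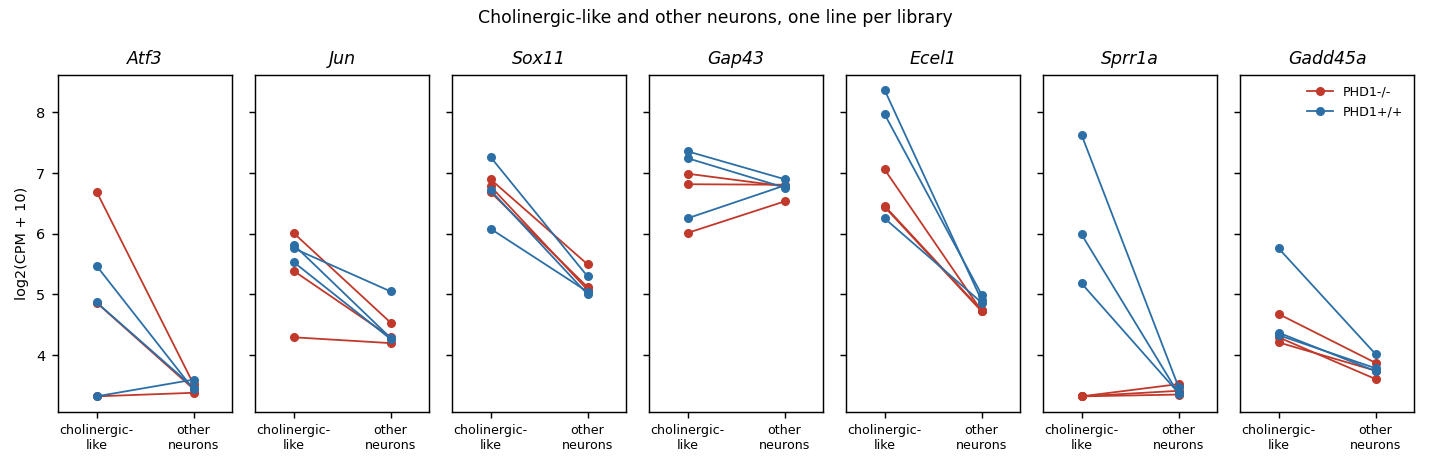
Level of each gene in cholinergic-like neurons (left) and in all other neurons (right) as log2(CPM + 10), 1 line per library, PHD1-/- in red and PHD1+/+ in blue. Jun, Sox11, Ecel1 and Gadd45a fall from left to right in all 6 libraries, Sprr1a does so in the 3 PHD1+/+ libraries, and the lines of Gap43 run both ways.

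The wider list was read by role in the same comparison, and had been drawn up with earlier results of these data known. Of its 57 genes, 51 were tested, 21 were higher in cholinergic-like neurons, 5 were lower and 25 did not pass; the list's median log2 difference was 0.18, against -0.09 over all tested genes. Among transcription factors and regulators, 7 of 11 were higher and 0 lower. Creb5, a CREB-family factor, was at 441 ± 162 CPM in cholinergic-like neurons and 12.2 ± 2.4 CPM in other neurons (SD, n = 6 libraries; log2 difference 5.18, adjusted p = 5.68e-30, edgeR). Creb5 is also a marker of gamma motor neurons.

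Among genes of growth and the cytoskeleton, 11 of 16 were higher and 1 lower. The calcium-dependent membrane protein Anxa2 was at 75.5 ± 29.9 against 3.92 ± 3.92 CPM (log2 difference 4.79), the hyaluronan receptor Cd44 at 68.4 ± 42.3 against 3.17 ± 0.71 CPM (4.45) and the small heat shock protein gene Hspb1 at 44.6 ± 33.2 against 7.77 ± 9.99 CPM (3.22), each in cholinergic-like against other neurons (SD, n = 6 libraries). The lower gene of that group was Marcks, an actin-binding substrate of protein kinase C, at 11.7 ± 8.5 against 38.4 ± 6.0 CPM (log2 difference -1.39, adjusted p = 0.000114, edgeR). Of the upstream kinases and scaffolds, 0 of 9 were higher and 1 was lower, the JNK scaffold Mapk8ip1, at 51.1 ± 24.4 against 85.2 ± 36.8 CPM (-0.73). Of the neuropeptides 0 of 5 were higher and 2 lower, Npy at 9.93 ± 13.6 against 43.7 ± 14.8 CPM (-1.98) and Adcyap1 at 19.5 ± 12.6 against 44.4 ± 8.7 CPM (-1.13).
Of the remaining roles, 2 of 6 genes of cell death and growth arrest and 1 of 2 signals to glia and immune cells were higher with 0 lower, and of the 2 axon degeneration genes 1 was lower and 0 were higher.

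Set among all 32 neuron types of at least 50 nuclei, cholinergic-like neurons ranked first for Atf3, Jun, Ecel1, Sprr1a and Gadd45a, second for Sox11 and 16th for Gap43, on levels pooled over libraries. These intervals are exact 95% Poisson intervals, which cover counting error only. Atf3 was at 23.97 CPM (17.6 to 31.9) in cholinergic-like neurons, and the next type, excitatory-like neurons led by Lmo3 and Tac1, was at 2.70 CPM (1.09 to 5.57); 8 types had 0 Atf3 UMIs. Sprr1a was at 28.1 CPM (21.1 to 36.5) and the next type, neurons like those that contact the cerebrospinal fluid, was at 2.11 CPM on 1 UMI; 13 types had 0. Jun was at 35.2 CPM (27.4 to 44.5), above the next type, inhibitory-like neurons led by Eya2 and Met, at 17.9 CPM (12.5 to 24.7).

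For the other genes the first place was shared or lost. Ecel1 was at 187 CPM (169 to 207) in cholinergic-like neurons and at 168 CPM (153 to 183) in inhibitory-like neurons led by Npy and Ndnf, and these intervals overlap. Over libraries those inhibitory-like neurons held 172 ± 28.8 CPM of Ecel1 and cholinergic-like neurons 151 ± 106 CPM (SD, n = 6), so they did not differ beyond their spread, while the third type was at 53.8 CPM and the median type at 9.40 CPM. Sox11 was at 90.3 CPM (77.5 to 105) in cholinergic-like neurons and at 96.3 CPM (83.1 to 111) in excitatory-like neurons led by Nts and Trh, again with overlapping intervals. Over libraries the means were 99.9 ± 27.8 CPM in cholinergic-like neurons and 97.5 ± 39.5 CPM in the Nts and Trh neurons (SD, n = 6), so the order of these types turned with the averaging. Gap43 was at 123 CPM in cholinergic-like neurons, close to the median type at 122 CPM, and highest in the neurons like those that contact the cerebrospinal fluid, at 310 CPM (262 to 364). Gadd45a was at 11.7 CPM (7.44 to 17.6) in cholinergic-like neurons and at 7.10 CPM (1.93 to 18.2) in the next type.

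**Figure D2:**
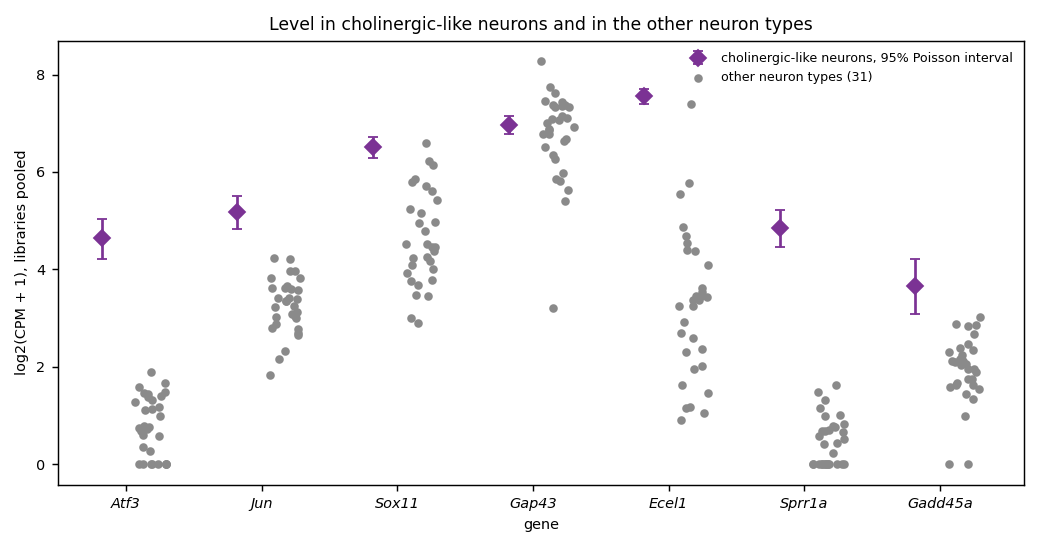
Level of each gene in the 32 neuron types of at least 50 nuclei as log2(CPM + 1), libraries pooled; the diamond is the cholinergic-like cluster with its 95% Poisson interval and each grey point is 1 of the other types. The diamond stands clear above the points for Atf3, Jun and Sprr1a, is level with the highest point for Ecel1 and Sox11, and lies in the middle of the points for Gap43.

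Inside the cholinergic-like cluster the genes were unevenly spread. Atf3 UMIs came from 6 of 116 nuclei and Sprr1a UMIs from 4, while Ecel1 was found in 66, Sox11 in 61, Gap43 in 59, Jun in 32 and Gadd45a in 12. UMIs of 2 or more of the 7 genes were found in 73 of the 116 nuclei (62.9%), against 12.8% of the other neurons and 0.821% of oligodendrocyte-like nuclei, which are shallower. At least 4 of the 7 were found in 13 nuclei, 8 PHD1-/- and 5 PHD1+/+.

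The 8 nuclei with Atf3 or Sprr1a, 3 PHD1-/- and 5 PHD1+/+, had higher pooled levels of the other 5 genes, all of which were found in 6 to 8 of the 8. They held Ecel1 at 740 CPM against 113 in the 108 cholinergic-like nuclei without either, Sox11 at 336 against 57.3, Gap43 at 374 against 89.7, Jun at 129 against 22.6 and Gadd45a at 73.2 against 3.47 CPM. Their median depth was 25666 UMIs, against 13125.5 in the 108. Of the 30 Jun UMIs 26 lay in the 2 nuclei above 50000 UMIs. In the 6 under that depth Ecel1 was at 318 CPM (225 to 437), Sox11 at 377 (275 to 505) and Gadd45a at 58.7 (23.6 to 121), each above the interval of the 108, while Jun at 33.5 (9.13 to 85.8) and Gap43 at 159 (95.9 to 248.7) overlapped it. These intervals cover counting error in pooled UMIs and not the spread between nuclei or libraries, so they are no test. The Sox11 UMIs, for example, lay in 4 of the 6 nuclei. Cholinergic markers were lower in these 6 than in the 108: Slc5a7 was at 176 CPM (109 to 269) against 520, Chat at 92.2 (46.0 to 165) against 251 and Prph at 109 (58.0 to 186) against 277. In all 8 Slc5a7 was at 504, Chat at 99.0 and Prph at 542 CPM, of which the 2 deep nuclei held 96 of 117 Slc5a7 UMIs.

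In 2 nuclei all 7 genes were found together. One, from PHD1+/+ replicate 3, had 60756 UMIs, with 50 of Ecel1, 27 of Gap43, 24 of Sprr1a, 13 of Sox11, 11 of Jun, 9 of Atf3 and 5 of Gadd45a. The other, from PHD1+/+ replicate 2, had 52267 UMIs, with 84 of Ecel1, 41 of Gap43, 20 of Sox11, 15 of Jun, 13 of Sprr1a, 9 of Atf3 and 5 of Gadd45a. Both carried the large-motor-neuron transcripts Spp1 (177 and 107 UMIs) and Nefh (66 and 22) as well as Slc5a7 (64 and 32) and Prph (28 and 85). Other markers were low in them, with Chat at 7 and 5 UMIs, Isl1 at 0 and 1 and the neuronal gene Rbfox3 at 0 and 1. In all 8 nuclei Rbfox3 was at 25.8 CPM, against 144 in the 108. No motor neuron type is read from these transcripts. The PHD1-/- nuclei with Atf3 held 12, 7 and 2 Atf3 UMIs, with 6, 11 and 7 of Ecel1, 7, 20 and 11 of Sox11, and 0 of Sprr1a in each. The doublet caller marked 104 to 259 nuclei in each library of replicates 2 and 3, and those were removed before clustering. Every clustered nucleus of these libraries, both with all 7 genes included, had therefore passed it. This does not show that they are single nuclei. In replicate 1 it marked 1 nucleus in PHD1-/- and 0 in PHD1+/+, so the 2 nuclei of the 8 that come from replicate 1 were in effect not screened.

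**Figure D3:**
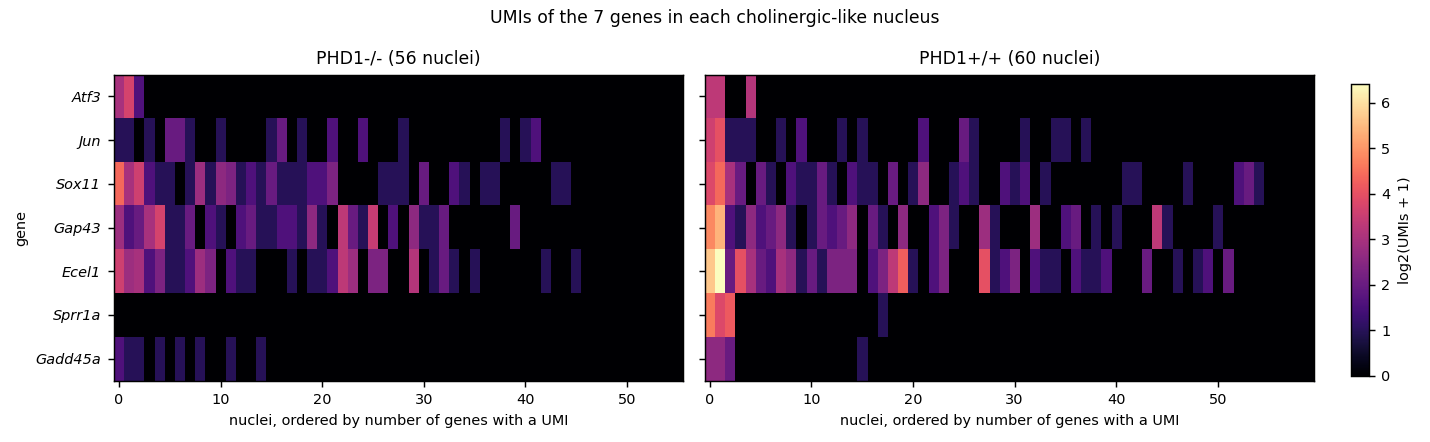
UMIs of the 7 genes in each of the 116 cholinergic-like nuclei as log2(UMIs + 1), PHD1-/- left and PHD1+/+ right, with nuclei ordered by the number of the 7 genes found. Atf3 and Sprr1a light up in a few nuclei at the left of each panel, Sprr1a in PHD1+/+ nuclei alone, while Sox11, Gap43 and Ecel1 are spread over the panels.

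Outside the named neurons, an unnamed cluster of 96 nuclei led by Srxn1, the gene of sulfiredoxin, had the highest level of Sox11, Gap43, Sprr1a and, beside 1 smaller cluster, of Jun and Gadd45a. It held Gap43 at 1675 CPM (1472 to 1898), Ecel1 at 231, Sox11, Jun, Sprr1a and Gadd45a at 157 each on 23 UMIs apiece, and Atf3 at 68.1 CPM on 10 UMIs. UMIs of 2 or more of the 7 genes were found in 47 of its 96 nuclei (49.0%), at a median depth of 984.5 UMIs. Gap43 there was 3687, 1518 and 1539.5 CPM in PHD1-/- libraries and 1205, 1463 and 1686 CPM in PHD1+/+ libraries, so it was high in every library. Sprr1a was less even, with 15 of its 23 UMIs in 2 nuclei of PHD1+/+ replicate 3 and 0 in PHD1+/+ replicate 1. Of the 23 Sox11 UMIs, 8 lay in 3 nuclei of PHD1-/- replicate 1. The cluster had the neuronal transcript Snap25 in 82.3% of nuclei, the excitatory transporter gene Slc17a6 in 34.4%, the inhibitory one, Slc32a1, in 16.7% and Chat in 1.04%. The sensory ganglion markers Scn10a, Trpv1, Avil and Prdm12 were all at 0 of the cluster's 146874 UMIs, a depth at which low levels can be missed. Tubb3, also on that marker list, is not given here. Where these nuclei come from was not tested.

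Clusters rich in mitochondrial transcripts also had high levels of Sprr1a and Ecel1. In 99 such nuclei with transcripts of motor and sensory neurons, Ecel1 pooled over libraries was at 373 CPM (297 to 463), the highest of all classes. Of the 99, 70 came from PHD1+/+ replicate 1. By library Ecel1 ran from 228 to 1890 CPM in PHD1-/- and from 11.9 to 3461 CPM in PHD1+/+, so the pooled value stands for no single library. Prph was found in 81.8% of these nuclei and Avil, a sensory ganglion gene, in 31.3%. In 391 such nuclei with Schwann cell transcripts, Sprr1a was at 59.4 CPM, and its 50 UMIs came from 3 nuclei. With the 4 cholinergic-like nuclei, 7 nuclei thus held 105 of the 296 Sprr1a UMIs of all libraries (35.5%).

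Glial, immune and vascular classes also held the factors Atf3 and Jun and the stress gene Gadd45a. Atf3 was at 84.8 CPM (47.5 to 140) in an immune cluster of 131 nuclei led by Atp6v0d2 and Gpnmb, and at 22.01 CPM (17.6 to 27.3) in the 2909 microglia-like nuclei, where 73 nuclei had a UMI. By library, microglia-like nuclei held 16.2, 18.9 and 10.4 CPM of Atf3 in PHD1-/- libraries and 17.5, 31.96 and 30.6 CPM in PHD1+/+ libraries. Jun was at 136 CPM (101 to 180) in Schwann-like cells led by Scn7a, with Gadd45a at 52.9 and Atf3 at 25.1 CPM, and at 81.6 CPM (63.2 to 104) in endothelial-like cells. A cluster of 31 nuclei led by Nupr1 and Gdf15, both stress-induced genes, had Gadd45a at 290 CPM (182 to 439), Jun at 171 and Atf3 at 79.1 CPM. Sox11 outside neurons was highest among named classes in oligodendrocyte precursor-like cells, at 38.2 CPM (31.2 to 46.2), and Gap43 was there at 145 CPM. Oligodendrocyte-like, astrocyte-like and fibroblast-like cells held 1.17 to 3.18 CPM of Atf3 and 2.02 to 3.18 CPM of Sprr1a.

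**Figure D4:**
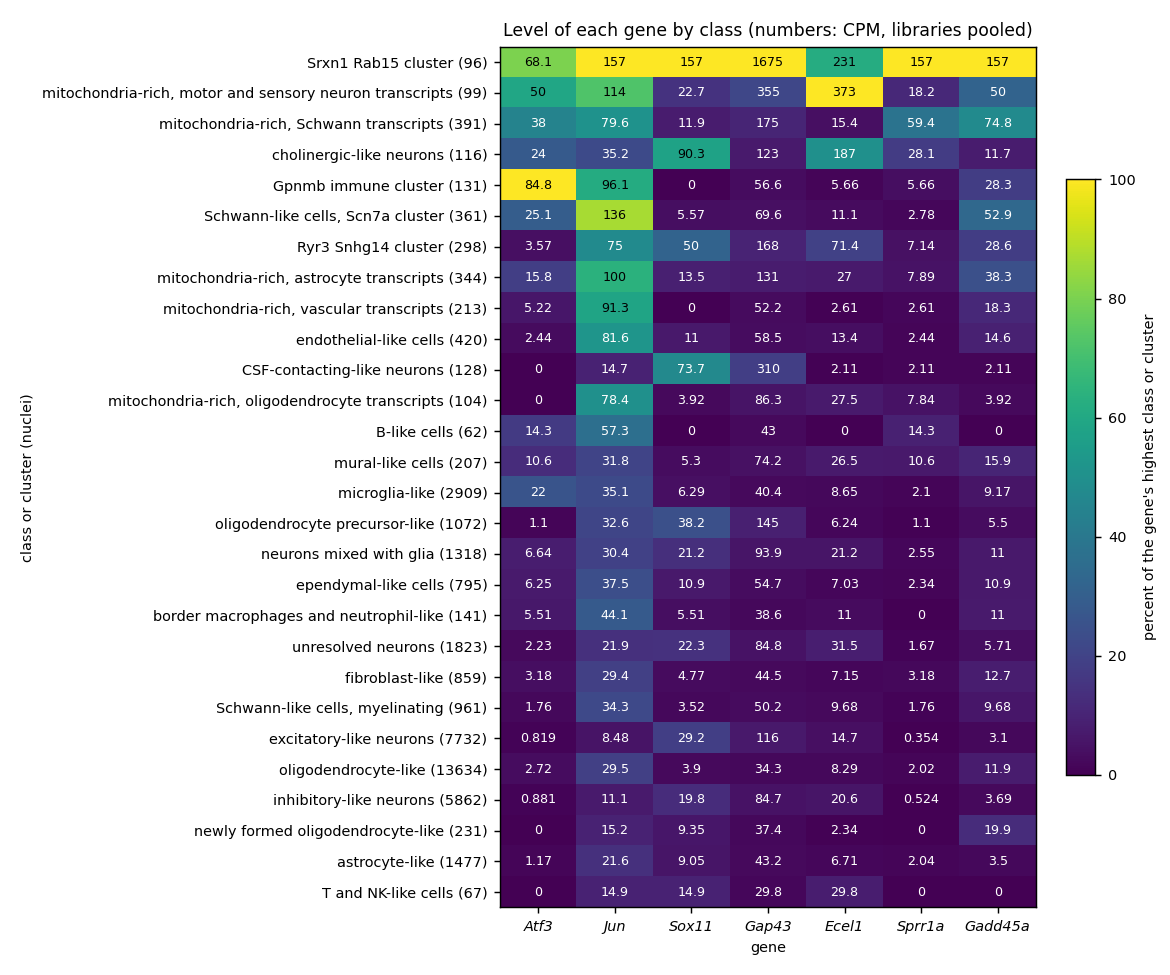
Level of each gene in every class or cluster of at least 50 nuclei, in CPM pooled over libraries; the colour gives the level as a percentage of that gene's highest row, so colours compare rows within a gene and not genes. The Srxn1 Rab15 cluster, the mitochondria-rich clusters and the cholinergic-like neurons fill the upper rows, and Atf3 is highest in the Gpnmb immune cluster.

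The share of nuclei with a UMI depends on depth, and free RNA in the droplets, whose amount was not measured here, can give UMIs of a gene to nuclei that do not express it. After each nucleus was thinned to 1000 UMIs, Sox11 was found in 12.2 ± 9.2% of cholinergic-like nuclei, 3.01 ± 0.47% of the other neurons and 0.382 ± 0.199% of oligodendrocyte-like nuclei (SD, n = 6 libraries). Ecel1 was found in 8.99 ± 6.83%, 1.72 ± 0.37% and 0.840 ± 0.387% of the same nuclei, in that order, and Gap43 in 9.27 ± 8.61%, 10.3 ± 1.0% and 3.41 ± 1.23%. Unthinned, the shares in cholinergic-like nuclei were 52.7% for Sox11, 54.2% for Ecel1 and 48.9% for Gap43. Jun was found in 2.56 ± 4.06% of cholinergic-like nuclei, which is 2 nuclei, in 1.04 ± 0.51% of the other neurons and in 3.06 ± 0.96% of oligodendrocyte-like nuclei, a class that itself held 29.5 CPM of Jun, so no order is read from the shares of Jun.

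Across 52 classes and neuron types the 7 genes did not vary as 1 block. The correlation of log2(CPM + 10) between members is a description, since the classes share libraries, differ in depth and were cut from 1 set of nuclei. Atf3 went with Gadd45a (Pearson r = 0.74), Jun (0.73) and Sprr1a (0.72), and Sox11 went with Gap43 (0.62), whereas Sox11 and Atf3 had r = -0.04 and Sox11 and Jun r = -0.18. The genes most like Atf3 were Nr2c2ap (0.83), Pold4 (0.79) and Gtf3c6 (0.79), and those most like Jun were Csnk2b (0.88), Anapc11 (0.87) and Dazap2 (0.86), among 16375 genes. Gadd45a was most like 1810058I24Rik (0.89), Ciao2a (0.88) and Ddit3 (0.87), a stress-response factor, and Sprr1a most like Timm8a1 (0.84), Fastkd3 (0.82) and Psmc6 (0.82). Sox11 was most like Wrb (0.74), Rab15 (0.73) and Celf6 (0.72), Gap43 most like Actr1b (0.75), Golga7b (0.72) and Pcsk1n (0.71), and Ecel1 most like Rprml (0.68), Ppp1r1c (0.68) and Gm49953 (0.67).

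Whether loss of PHD1 goes with another level of these genes was asked first over all nuclei, where none passed the test. In these sums, fewer nuclei of a type and less RNA per nucleus cannot be told apart. Ecel1 was at 13.1, 16.8 and 14.98 CPM in PHD1-/- libraries and at 15.7, 23.01 and 27.9 CPM in PHD1+/+ libraries, which overlap by 1 library of each group (log2 fold change -0.57, SE 0.26, adjusted p = 1.00, edgeR). Atf3 was at 3.91, 2.65 and 1.22 CPM in PHD1-/- libraries and 5.30, 3.31 and 3.72 CPM in PHD1+/+ libraries (-0.68, SE 0.45). Sprr1a was at 2.34, 1.26 and 0.540 CPM in PHD1-/- libraries and 5.73, 1.15 and 2.77 CPM in PHD1+/+ libraries (-1.25, SE 0.72).
Gap43 had a log2 fold change of -0.22 (SE 0.16), Jun of -0.38 (SE 0.44), Gadd45a of -0.46 (SE 0.54) and Sox11 of 0.16 (SE 0.16), and each adjusted p was 1.00. Sox11 did not overlap between genotypes, at 25.6, 20.7 and 20.7 CPM in PHD1-/- libraries and 20.5, 19.2 and 20.1 CPM in PHD1+/+ libraries, by a gap smaller than its spread within PHD1-/-; the exact permutation p was 0.1, the smallest that 3 against 3 allows. Of all 19303 genes edgeR called 0 (0%), with 96 at an unadjusted p under 0.05; DESeq2 called 0 with 110, and edgeR with the replicate number as a block 0 with 1181. Egln2, the gene of PHD1 itself, was therefore not called either (log2 fold change -1.17, SE 0.26, unadjusted p = 0.00291, edgeR). Its adjusted p was 0.615 with the block (edgeR) and 0.502 with DESeq2.

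PHD1+/+ replicate 1 had 9.64% of its nuclei in mitochondria-rich clusters, against 0.166 to 2.81% in PHD1-/- libraries and 0.181 and 0.461% in the other PHD1+/+ libraries, and those clusters held 52.8% of its Sprr1a UMIs and 41.0% of its Atf3 UMIs. Without mitochondria-rich clusters the log2 fold change was -0.83 for Sprr1a, -0.54 for Atf3 and -0.51 for Ecel1, and Atf3 then lay at 3.31, 2.65 and 1.16 CPM in PHD1-/- libraries and 3.49, 3.28 and 3.51 CPM in PHD1+/+ libraries. Without that library alone, with PHD1-/- replicate 1 kept, Jun turned to 0.19 and Gadd45a to 0.14, and Sprr1a went to -0.55. With replicate 1 of both genotypes left out, Jun was at -0.12, Gadd45a at -0.38 and Sprr1a at -1.07. Set beside the PHD1+/+ library of the same number, the PHD1-/- library was lower in 3 of 3 pairs for Atf3, Jun, Ecel1 and Gadd45a, in 2 of 3 for Gap43 and Sprr1a and in 0 of 3 for Sox11. Of all 16375 genes with 200 or more UMIs, 15.8% were lower in 3 of 3 pairs and 14.5% in 0 of 3, and 3 pairs cannot reach an exact p under 0.25.

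**Figure D5:**
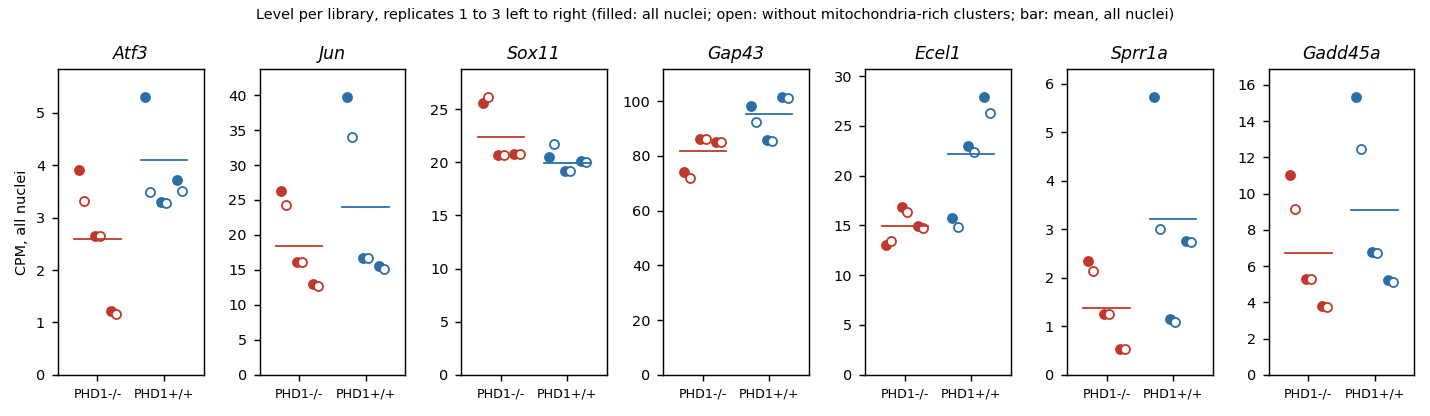
Level of each gene in CPM over all nuclei of a library, PHD1-/- left and PHD1+/+ right, replicates 1 to 3 from left to right; filled points use all nuclei, open points leave out mitochondria-rich clusters, and bars are the means of the filled points. Replicate 1 is the highest filled point of both groups for Atf3, Jun, Sprr1a and Gadd45a, and for these 4 genes the open point drops furthest below the filled one in PHD1+/+ replicate 1.

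In the wider list 54 of 57 genes were tested over all nuclei and 0 passed. Of these, 41 had a lower fitted level in PHD1-/-, with a median log2 fold change of -0.14 against -0.01 over all genes, of which 51.8% were lower. The smallest unadjusted p-values among lower genes were those of the tubulin gene Tubb2a (-0.70, with 51.5 ± 11.6 CPM in PHD1-/- libraries and 83.5 ± 35.1 CPM in PHD1+/+ libraries, each SD over 3) and the stress factor gene Ddit3 (-0.55), and among higher genes those of the neuropeptide gene Vip (0.58) and of Sarm1 (0.23), an executioner of axon degeneration. The adjusted p of each was 1.00 with edgeR.

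Within 15 classes fitted apart, edgeR called 1 of 97225 tests over all genes (0.00103%), and 0 of the 33 member tests that passed the count filter, with 2 at an unadjusted p under 0.05; over all genes 946 tests were at an unadjusted p under 0.05. The fitted level was lower in PHD1-/- in 27 of the 33, against 52.0% of all gene tests in the same 12 classes, and the 33 share genes and libraries. DESeq2 called 3 in all, 1 of them a member, and edgeR with the replicate block called 109 (0.101%), also with 1 member; both times this was Sprr1a in cholinergic-like neurons. In microglia-like nuclei Atf3 had a log2 fold change of -0.81 (SE 0.39, unadjusted p = 0.0696, adjusted p = 1.00, edgeR), on the values by library given above, and in Schwann-like cells led by Scn7a Jun had -1.63 (SE 0.83, adjusted p = 0.999). Over all neurons together Ecel1 had -0.47 (SE 0.19, unadjusted p = 0.0440, adjusted p = 1.00, edgeR). Excitatory-like and inhibitory-like neurons had Ecel1 at -0.52 (SE 0.33) and -0.06 (SE 0.24).

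In cholinergic-like neurons 5 of the 7 genes passed the filter; the 2 left out there, Atf3 and Gadd45a, had 21 and 9 UMIs over PHD1-/- nuclei and 26 and 14 over PHD1+/+ nuclei. edgeR called 0 of 6435 genes, with 301 at an unadjusted p under 0.05. Sprr1a had 0 UMIs in all 56 PHD1-/- nuclei, of 909333 UMIs in all, and 55 UMIs in the 60 PHD1+/+ nuclei, of 1051432. At 52.3 CPM (39.4 to 68.1) in PHD1+/+ nuclei and with a limit of 3 counts over the PHD1-/- group, 3.30 CPM, it was at least 11.9-fold lower in PHD1-/- by the lower end of that interval, and 15.9-fold by the value itself. These figures cover counting error in pooled UMIs and not the spread between nuclei, libraries or animals. The adjusted p was 0.304 with edgeR, 0.0198 with edgeR and the replicate block, where 12 of 7341 genes (0.163%) were called and all were lower, and 0.0151 with DESeq2, where Sprr1a was the 1 lower gene called of 19110 (0.00523%).
Of the 55 UMIs, 54 lay in 3 nuclei, 1 in each PHD1+/+ library, so 1 nucleus carried nearly all of the value in each of these libraries. A Sprr1a UMI was found in 0 of 56 PHD1-/- nuclei, which by counting error alone allows a share of up to 5.36%, and in 4 of 60 PHD1+/+ nuclei. These shares pool nuclei of unequal depth over 3 libraries and are no test of genotype.

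Ecel1 was at 78.0 to 123 CPM in cholinergic-like neurons of PHD1-/- libraries and at 66.4 to 321 CPM in those of PHD1+/+ libraries, with a log2 fold change of -1.25 (SE 0.39, unadjusted p = 0.00688, adjusted p = 0.653, edgeR). The 2 PHD1+/+ nuclei that held all 7 genes carried 134 of the 275 Ecel1 UMIs of that group (48.7%). Without the 4 nuclei of 50000 UMIs or more, Ecel1 lay at 78.0, 123 and 69.6 CPM in PHD1-/- libraries and at 66.4, 79.3 and 284 CPM in PHD1+/+ libraries. Gap43 had -0.43 (SE 0.32), Jun -0.56 (SE 0.52) and Sox11 0.17 (SE 0.36), none past the threshold.

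The contrast between cholinergic-like and other neurons was also compared between genotypes. For Sprr1a the mean difference in log2(CPM + 10) was -0.11 ± 0.09 in PHD1-/- libraries and 2.86 ± 1.19 in PHD1+/+ libraries, which do not overlap (exact permutation p = 0.1, the smallest possible). With nuclei chosen by Chat or Slc5a7, most of them outside the cluster, the genotypes overlapped and the difference between them was -0.738 in place of -2.97. For Ecel1 it was 1.92 ± 0.35 in PHD1-/- and 2.61 ± 1.09 in PHD1+/+ (exact permutation p = 0.4), and for Sox11 1.56 ± 0.15 and 1.57 ± 0.48 (0.9), each SD with n = 3. The other 4 genes had exact permutation p-values of 0.6 to 0.7 and overlapped. After thinning to 1000 UMIs, Ecel1 was found in 9.72 ± 7.89% of PHD1-/- and 8.25 ± 7.25% of PHD1+/+ cholinergic-like nuclei and Sox11 in 7.64 ± 4.34% and 16.8 ± 11.5%, with exact permutation p-values of 0.9 and 0.3, and none of the 7 was separated by genotype.

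Of the wider list, 30 genes were tested in cholinergic-like neurons, 0 passed and 20 had a lower fitted level in PHD1-/-; the median log2 fold change was -0.25, against 0.01 over all genes. Tubb2a was at 23.4, 40.5 and 28.9 CPM in PHD1-/- libraries and at 55.3, 132 and 148 CPM in PHD1+/+ libraries, which do not overlap (log2 fold change -1.88, SE 0.37, adjusted p = 0.304 with edgeR, 0.0365 with the replicate block and 1.00 with DESeq2). Csf1, a microglial growth factor that injured neurons secrete, was at 0, 12.8 and 22.5 CPM in PHD1-/- libraries and 33.2, 60.7 and 68.5 CPM in PHD1+/+ libraries (-2.05, SE 0.52, adjusted p = 0.402 with edgeR and 0.0945 with the replicate block). The smallest p-values in the other direction were those of Creb5 (0.51) and of the adhesion gene Flrt3 (0.74), both with an adjusted p of 1.00 with edgeR.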

How the data were processed

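Raw UMI counts per gene and barcode were deposited by the authors. Per the file headers they come from Cell Ranger 5.0.1. The submitters' processing notes list version 5.0.2 of that tool, mm10 as the build, and Scanpy 1.8.1. No source used here says if reads in introns counted. Barcodes were kept at 500 or more UMIs, 300 or more genes and under 5% mitochondrial UMIs, and Scrublet calls were removed; Scrublet marked 0 and 1 nuclei in replicate 1, so it did not work there. Leiden clusters (Scanpy 1.11.5, Python 3.11.15, leidenalg 0.10.2; 2000 variable genes, 30 components, 15 neighbours) were made without the 64 member and listed genes and named from fixed markers. The 7 genes, the lists and the tests were chosen with earlier results of these data known.

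Counts of a class were added up within each library, so libraries and not nuclei are the replicates. The edgeR p-values rest on spread between libraries that is estimated partly across genes. For genes at 0 in some libraries they can lie far below the exact sign-flip p. Between neurons the adjusted p (edgeR) and the sign-flip p were 1.16e-10 and 0.125 for Atf3, and 7.00e-10 and 0.25 for Sprr1a. The sums went into edgeR 4.0.16 (with limma 3.58.1 under R 4.3.3; TMM, filterByExpr, quasi-likelihood test, Benjamini-Hochberg over all tested genes, threshold 0.05), with DESeq2 1.42.0 beside it. A class was fitted where every library held 10 or more nuclei. The neurons were compared with the library as a block. CPM is scaled to the UMIs of the class, except inside the fits. Intervals and the limit of 3 counts cover counting error only. Fits were tested on simulated data with log2 changes of 1 and 2. The genotype fit over all nuclei recovered 0% and 35.7% of these, and that in cholinergic-like neurons 20% and 87.8%. The fit of cholinergic-like against other neurons recovered 46.9% and 84%. With no change put in, each made 0 calls. A genotype change of log2 1 over all nuclei could therefore go uncalled. Same-numbered libraries of the 2 genotypes deviated together over all nuclei (r = 0.829, 0.636 and 0.523 for replicates 1, 2 and 3). Replicates 2 and 3 also did so across numbers (r = 0.484 and 0.394). In cholinergic-like neurons their r was 0.176 and 0.228 across numbers, against 0.165 and 0.215 within. These values set replicate 1 apart and do not settle which libraries of replicates 2 and 3 belong together. The replicate number was still taken to pair the libraries. The labels do not say so, the main fit has no block, and blocked values stand beside the results they change.

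All 7 genes are named in every comparison. From the wider list, up to 4 genes per direction past the threshold with the largest change are named, or up to 2 with the smallest p where none passes, and for each member the 3 genes of most similar pattern among genes with 200 or more UMIs.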

Additional observations from a re-analysis of the deposited data

Results flagged for a closer look

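For Sprr1a, the difference between cholinergic-like and other neurons on log2(CPM + 10) was below 0 in each of the 3 PHD1-/- libraries and above 0 in each of the 3 PHD1+/+ libraries, and the PHD1-/- mean lay -2.97 from the PHD1+/+ mean. The PHD1-/- differences were small, at -0.202, -0.0916 and -0.0297. With 0 Sprr1a UMIs in cholinergic-like nuclei, their sign was fixed below 0 wherever the other neurons held any, so no opposite direction is read from it. Beyond the exact permutation p of 0.1 that 3 against 3 libraries can give, the difference between genotypes was not tested. In PHD1-/- libraries the value goes with 0 UMIs in 56 nuclei. With nuclei chosen by Chat or Slc5a7, most of them outside the cluster, the genotypes overlapped and the difference was -0.738.

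For Gadd45a, the same difference was 1.74 in PHD1+/+ replicate 1, which stood apart from the other 5 libraries, at 0.466 to 0.805; the gap was 0.735 of the whole range, against a critical value of 0.625 for 6 libraries. That library held 4 Gadd45a UMIs in 2 of 11 cholinergic-like nuclei. Chance would set apart about 1 in 20 such groups, and 7 were looked at.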

How the results depend on the processing

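The call of 0 genes between genotypes over all nuclei stayed at 0 under all 14 alternatives. Within classes, the 1 call over all genes became 3 with DESeq2, 61 with no count filter, 109 with the replicate block, 44 in replicates 2 and 3 alone and 0 to 22 when 1 library was left out, with the 22 without PHD1+/+ replicate 1; the member calls, 0 in the main fit, became 1 in each of the first 4 of these, always Sprr1a in cholinergic-like neurons. Cholinergic-like against other neurons gave 3627 calls, 2301 without the library block, 1945 with nuclei chosen by Chat or Slc5a7 and 2879 to 3461 when 1 library was left out, with 6 members called in each of those leave-outs. Gap43 turned to -0.066 without nuclei of 50000 UMIs or more, an alternative chosen after seeing the data, as was leaving out mitochondria-rich clusters. Among the genotype fold changes, Jun ranged from -0.707 to 0.187 and Gadd45a from -0.989 to 0.137 over all nuclei when 1 library was left out, both turning without PHD1+/+ replicate 1. Sox11 in cholinergic-like neurons ranged from -0.178, without PHD1+/+ replicate 3, to 0.412. The genotypes did not overlap in the cholinergic-like contrast for 1 gene, for 0 with nuclei chosen by Chat or Slc5a7, and for 1 to 3 when 1 library was left out, with 3 without PHD1+/+ replicate 1 and 2 without PHD1+/+ replicate 3; the contrast of Atf3 between genotypes ranged from -0.374 to 1.24, turning without replicate 1 of either genotype, and that of Ecel1 from -1.3 without PHD1+/+ replicate 1 to -0.255 without PHD1+/+ replicate 3. Leaving out 1 library also moved by over 1.5 times the fold change of Atf3 over all nuclei (-1.06 without PHD1-/- replicate 1, -0.333 without PHD1-/- replicate 3), that of Jun in cholinergic-like neurons (-0.906 without PHD1-/- replicate 1, -0.0743 without PHD1-/- replicate 3), those of Ecel1 and Gap43 (-0.356 over all nuclei for Ecel1 and -0.26 in cholinergic-like neurons for Gap43, both without PHD1+/+ replicate 3), those of Sox11 and Gap43 over all nuclei (0.0627 and -0.144, without PHD1-/- replicate 1) and the mean cholinergic-like level of Atf3 (14.6 CPM without PHD1-/- replicate 1) and Sprr1a (16 CPM without PHD1+/+ replicate 1). In thinned shares 0 genes were separated, and 0 to 3 when 1 library was left out, with 3 without PHD1+/+ replicate 3. At 2000 UMIs 1 gene was separated, Jun, which was higher in PHD1-/-. It was found in 14.3, 8.70 and 12.5% of PHD1-/- and 0, 0 and 0% of PHD1+/+ cholinergic-like nuclei, 6 nuclei in all. Unthinned, 1 gene was separated, Sprr1a, which was lower in PHD1-/- (0, 0 and 0% against 9.09, 3.70 and 9.09%). At 2000 UMIs Sprr1a overlapped between genotypes. The count of 4 genes higher in cholinergic-like neurons in every library was 5 in replicates 2 and 3 alone and 4 in the other 7 alternatives run. Keeping Scrublet calls within classes and between neuron classes was not run. No share over all genes stands beside these counts of genes not overlapping, separated in thinned shares or higher in every library. They are therefore not read as results about the 7 genes.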
